A study of Homo sapiens with 4 samples.

Results

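The regions described here are promoters that had an ATAC-seq peak in both libraries of ATRA-treated HL-60 cells and in neither library of control cells. Peaks of the 4 deposited lists were merged where they overlapped by at least 1 base, which gave 78063 regions. A region was a promoter when its centre lay between 1000 bases upstream and 100 bases downstream of a transcription start site (TSS) of a protein-coding gene, and 9910 regions met this. Of these, 479 were gained after ATRA, at the promoters of 505 genes. HL-60 is an established human promyelocytic leukemia line. Cells of the ATRA group were grown with 1 µM all-trans retinoic acid for 4 days, and control cells with ethanol, the solvent of ATRA, over those days. There were 2 replicates per group. The study describes them as independent and biological. ATAC-seq uses the Tn5 transposase to cut accessible DNA, and a peak is a place where cuts pile up.

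The members were selected on the presence and absence of peaks, so the contrast itself is a description. Gained regions made up 8.94% of all merged regions, and gained promoters 4.83% of all promoter regions. Regions with a peak in both control lists and in neither ATRA list, here called lost, made up 3.37% of merged regions and 0.928% of promoter regions (92 regions). A further 6650 promoter regions had a peak in all 4 lists, and 1027 had one in both ATRA lists and in 1 control list.

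The 4 lists were unequal. The list of ATRA replicate 2 was the longest at 63541 peaks, against 43494 in ATRA replicate 1, 42081 in control replicate 1 and 45903 in control replicate 2. Peaks of ATRA replicate 2 were also wider, with a median of 416 bases against 291 to 328 in the others. Control replicate 2 held peaks at 7445 promoter regions, the fewest of the 4 lists, against 8192 in control replicate 1. Of the 1027 promoters with a peak in 1 control list, 805 had it in control replicate 1 and 222 in control replicate 2. The count of gained promoters therefore depended on the libraries used. Leaving out a library also loosened the rule, since 1 list then decided presence or absence in its group. Without control replicate 1, for example, promoters in both ATRA lists whose only control peak was in that list counted as gained. The rule itself thus raised the count, and every value given below without a library comes from such a larger set. The count was 1303 without control replicate 1, 704 without control replicate 2, 1006 without ATRA replicate 1 and 823 without ATRA replicate 2. With the same number of peaks taken from the top of every list it was 270. Read counts are not part of the lists and depth was unknown. Its part in the number of gained promoters was not tested.

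ATRA is a ligand of the retinoic acid receptors (RARs), nuclear receptors that bind DNA together with retinoid X receptors and switch from repression to activation of their target genes when the ligand binds. In HL-60 cells it drives maturation along the granulocyte lineage. Most promoters of mammalian genes lie in CpG islands and are accessible in nearly every cell type, while CpG-poor promoters are more often used by genes of a single tissue or cell state. Accessibility at a promoter shows that the transposase could reach it. It does not measure transcription.

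Sequences of high-ranking gained promoters are given first, because they show both kinds of promoter found in the set. Each is on the strand of its gene, 5′ to 3′, in hg19 coordinates, and holds no exon of a protein-coding gene. Capitals mark matches to the consensus motifs described further on. Those motifs were counted in the 200 bases about each centre, and the NLRP12, CFP and BATF2 stretches reach outside them. ZNF470 and CAPNS1 are CpG-rich, whereas NLRP12 and CFP are CpG-poor. CCL22, RARG and BATF2 were the highest-ranking genes on lists of inflammatory cytokines, retinoid receptors and transcription factors.
ZNF470 (chr19:57078712-57078836, plus strand): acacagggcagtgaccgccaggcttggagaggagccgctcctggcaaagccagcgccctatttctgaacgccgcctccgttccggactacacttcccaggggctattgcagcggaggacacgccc
NLRP12 (chr19:54327658-54327857, minus strand): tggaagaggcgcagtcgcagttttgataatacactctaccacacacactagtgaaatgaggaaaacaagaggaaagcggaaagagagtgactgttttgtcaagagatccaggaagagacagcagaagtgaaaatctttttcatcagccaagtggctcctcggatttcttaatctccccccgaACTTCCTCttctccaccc
CFP (chrX:47489705-47489904, minus strand): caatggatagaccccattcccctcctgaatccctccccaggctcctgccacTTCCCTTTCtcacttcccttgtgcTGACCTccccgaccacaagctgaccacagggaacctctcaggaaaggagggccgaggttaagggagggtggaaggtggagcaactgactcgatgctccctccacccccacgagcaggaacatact
CAPNS1 (chr19:36630643-36630842, plus strand): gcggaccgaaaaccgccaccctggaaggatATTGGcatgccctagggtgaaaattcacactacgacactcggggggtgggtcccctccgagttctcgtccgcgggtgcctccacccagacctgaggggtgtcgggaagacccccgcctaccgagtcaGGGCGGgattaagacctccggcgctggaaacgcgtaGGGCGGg
CCL22 (chr16:57392028-57392227, plus strand): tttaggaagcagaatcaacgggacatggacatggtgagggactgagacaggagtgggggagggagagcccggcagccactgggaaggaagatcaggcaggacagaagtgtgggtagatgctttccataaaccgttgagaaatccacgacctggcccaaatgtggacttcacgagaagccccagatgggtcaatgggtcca
RARG (chr12:53614537-53614736, minus strand): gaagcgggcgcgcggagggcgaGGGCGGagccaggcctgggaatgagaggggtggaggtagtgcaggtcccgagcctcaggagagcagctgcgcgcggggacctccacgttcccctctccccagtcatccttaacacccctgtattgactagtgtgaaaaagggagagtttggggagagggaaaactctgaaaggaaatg
BATF2 (chr11:64757987-64758068, minus strand): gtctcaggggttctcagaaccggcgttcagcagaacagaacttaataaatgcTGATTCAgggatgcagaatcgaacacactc
The capitals in NLRP12 are a PU.1 match, and in CFP an IRF match and an RAR half-site. These matches in NLRP12 and CFP lie outside the counted bases. Those in CAPNS1 are a CCAAT match and a pair of GC boxes, and RARG holds a GC box. BATF2 holds an AP-1 match, also outside the counted bases.

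The score of a peak is the peak caller's own value on a scale that the sources used here do not state, from 50.0 to 3100. It was used only to rank peaks within a list, as a percentile in which a higher value is a higher score. The gained promoters were mostly weak peaks. Their median percentile was 37.8 in ATRA replicate 1 and 36.1 in ATRA replicate 2, and no member lay above 89.6 and 91.8 respectively. Promoters with peaks in all 4 lists had medians of 87.1 and 89.6 in the same lists. Promoters in both ATRA lists and 1 control list had medians of 55.9 and 53.6. Distal gained regions had medians of 32.4 and 44.3. A total of 81 members (16.9%) were above percentile 50 in both ATRA lists and 244 (50.9%) below it in both. In 133 members (27.8%) the score was under 60 in at least 1 of the ATRA lists, close to the lowest score of 50.0. Across the 479 members, the percentiles in the 2 ATRA lists had a Pearson correlation of 0.41 and a Spearman correlation of 0.38. This is a description across regions of the same 2 libraries.

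**Figure D1:**
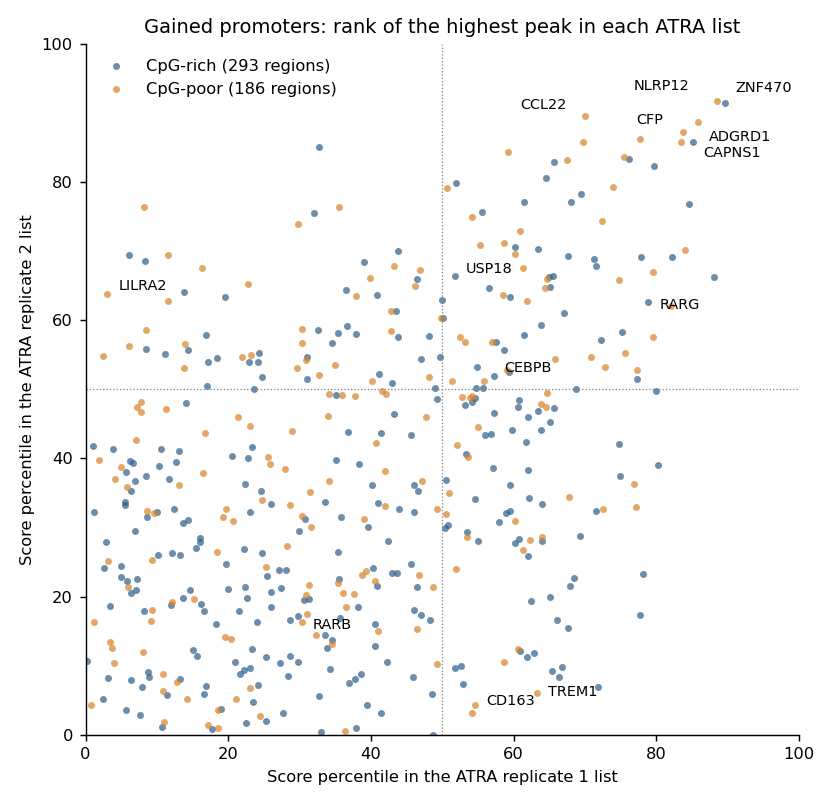
Each point is 1 of the 479 gained promoters, placed by the score percentile of its highest peak in the list of ATRA replicate 1 (x axis) and ATRA replicate 2 (y axis), with CpG-rich and CpG-poor promoters in different colours and dotted lines at percentile 50. ZNF470 and NLRP12 stand at the upper right, 244 members lie at the lower left, and TREM1 and CD163 rank far higher in replicate 1 than in replicate 2.

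The edges of the rule cut through a continuous set. RARB had its centre 981 bases upstream of an annotated TSS and was kept, while TLR6, whose centre was 1006 bases upstream, was left out. KCNE3 was kept at 100 bases downstream, and ARAP2 at 102 bases and TNNI2 at 105 bases were left out. SIPA1 entered with scores of 101.34 and 50.02, the second of which was barely above the lowest score of any list. The promoters of CARD8, CEACAM21 and DECR2 were left out because 1 control list held a peak with a score of 50.02 there.

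The 20 highest-ranking members held several genes of innate immunity. NLRP12, a regulator of inflammatory signalling in myeloid cells, had percentiles of 88.5 and 91.8 in the ATRA lists, and the nearest peaks of the control lists lay 17370 and 17350 bases away. CFP, which encodes properdin, the stabiliser of the alternative complement convertase, had percentiles of 83.8 and 87.3. CD300C, an activating receptor of myeloid cells, had percentiles of 83.4 and 85.9. CCL22, a chemokine that attracts CCR4-bearing T cells, had percentiles of 70.1 and 89.6. SIRPB1, a signal regulatory protein that pairs with the adaptor DAP12, had percentiles of 75.5 and 83.6. Each of these promoters was CpG-poor, and none of these genes had a further promoter region with peaks in all 4 lists.

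The other members of the first 20 had varied roles. ADGRD1, an adhesion G protein-coupled receptor, had percentiles of 85.9 and 88.6. PROCR, the protein C receptor, had percentiles of 74.0 and 79.3. TNFRSF10D, a decoy receptor for the death ligand TRAIL, had percentiles of 88.0 and 66.2, with control peaks 1959 and 1963 bases away. CAPNS1, the regulatory subunit of calpain, had percentiles of 85.1 and 85.7, with control peaks 820 and 755 bases away. One region covered the divergent starts of POLR2A, the largest subunit of RNA polymerase II, and ZBTB4, with percentiles of 79.7 and 82.3. MLST8, a subunit of the mTOR complexes, had percentiles of 82.3 and 69.2. PEMT, an enzyme of phosphatidylcholine synthesis, had 69.5 and 78.3, and USE1, a SNARE protein, had 65.7 and 82.9. DSE, a dermatan sulfate epimerase, had percentiles of 67.4 and 83.2 with control peaks just 97 and 75 bases from the region, so control peaks lay right beside it. The remaining places were held by GTDC1, CDIP1, 3 zinc finger genes and 1 gene known only by an Ensembl identifier.

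Zinc finger genes stood at the top of the set. ZNF470 ranked first with percentiles of 89.6 and 91.5, and no control peak lay within 27135 bases in replicate 1 or 251362 bases in replicate 2. ZNF480 had percentiles of 84.5 and 76.8, and ZNF573 had 76.2 and 83.4. All 3 are KRAB-type zinc finger genes on chromosome 19, a family of transcriptional repressors that lies in clusters there. Over the whole set, 25 members (5.22%, 95% Wilson interval 3.56 to 7.59) carried a gene with a ZNF symbol, 18 of them on chromosome 19. Among promoters with peaks in all 4 lists the share was 3.17% (2.78 to 3.62), and among those with peaks in both ATRA lists and 1 control list it was 3.70% (2.71 to 5.04). These intervals overlap. On chromosome 19, 18 of 85 gained promoters carried such a gene. The same held for 83 of 397 promoters there in all 4 lists, and 19 of 123 in both ATRA lists and 1 control list. Within that chromosome, the shares of gained promoters and of promoters in all 4 lists were close. The family was picked after the values were seen. ZNF382 had 2 gained regions beside each other, at chr19:37095537-37095919 and chr19:37096082-37096422.

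Gained promoters were unevenly spread over the chromosomes. Chromosome 19 held 85 members (17.7%), against 5.97% of promoters with peaks in all 4 lists and 4.57% of distal gained regions. Of the 714 promoter regions on chromosome 19, 11.9% (9.73 to 14.5) were gained. The share was 8.78% (6.74 to 11.4) on chromosome 17, 8.20% (5.37 to 12.3) on chromosome 22 and 7.84% (5.18 to 11.7) on chromosome 20. It was 2.88% (1.85 to 4.45) on chromosome 2 and 2.65% (1.61 to 4.33) on chromosome 3. Chromosome 19 also held 11.98% of the promoters in both ATRA lists and 1 control list (123 of 1027), and 1 of the 92 lost promoters. The difference between gained promoters and promoters in all lists was 11.8 percentage points, and it lay between 6.91 and 14.4 points under every alternative computed, with 6.91 points without control replicate 1 and 7.01 points without ATRA replicate 1. The median GC content of promoter regions on chromosome 19 was 64.0%, against 65.5% over all promoter regions. The part of library differences in this pattern was not tested.

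**Figure D2:**
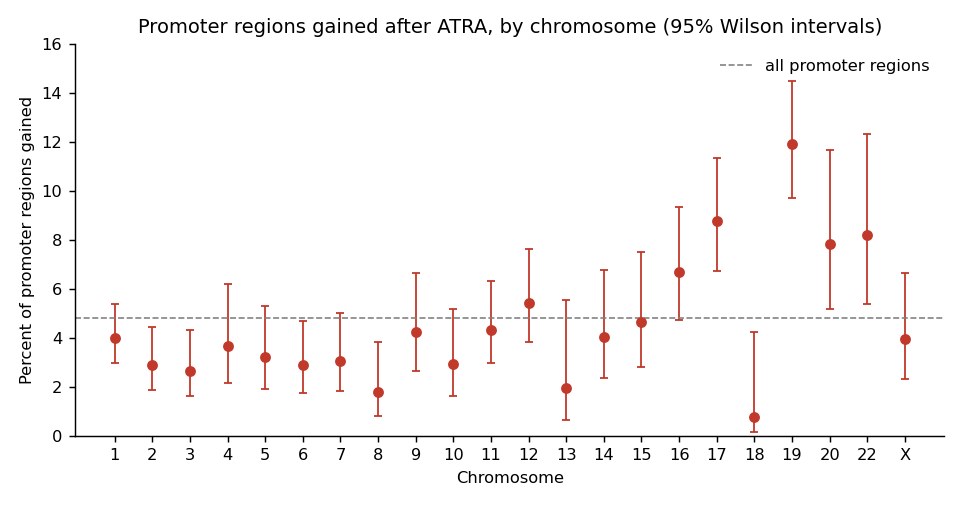
Points give the percent of promoter regions on each chromosome that were gained after ATRA, with 95% Wilson intervals, for chromosomes with at least 100 promoter regions, and the dashed line marks the 4.83% over all promoter regions. Chromosome 19 stands highest at 11.9%, and the intervals of chromosomes 17, 19, 20 and 22 lie above the line.

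Adhesion receptors, lysosome and lipid handling genes and paired immune receptors had the highest shares of gained promoters among the gene lists. Over all 557 listed genes that the annotation holds, 47 (8.44%) had a gained promoter, against 505 of 20136 protein-coding genes (2.51%). Among genes with any promoter region the shares were 13.9% of 337 and 5.02% of 10059. The lists were put together with earlier results of these data known, so these shares give no independent support. Adhesion and migration receptors had 6 gained promoters among 22 genes, and 1 gene with a promoter in all 4 lists. Paired immune receptors and adaptors had 6 among 38. Lysosome and lipid handling genes had 7 among 34, myeloid transcription factors 5 among 52, cytokine receptors 4 among 30, and kinase, adaptor and cytoskeleton genes 4 among 36. No gained promoter was found for the 7 NADPH oxidase genes, of which 4 had a promoter in all 4 lists. The 16 azurophil granule genes, the 21 progenitor genes and the 22 survival and death genes had none either. Lists this short can hold none at the 2.51% share over all protein-coding genes.

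**Figure D3:**
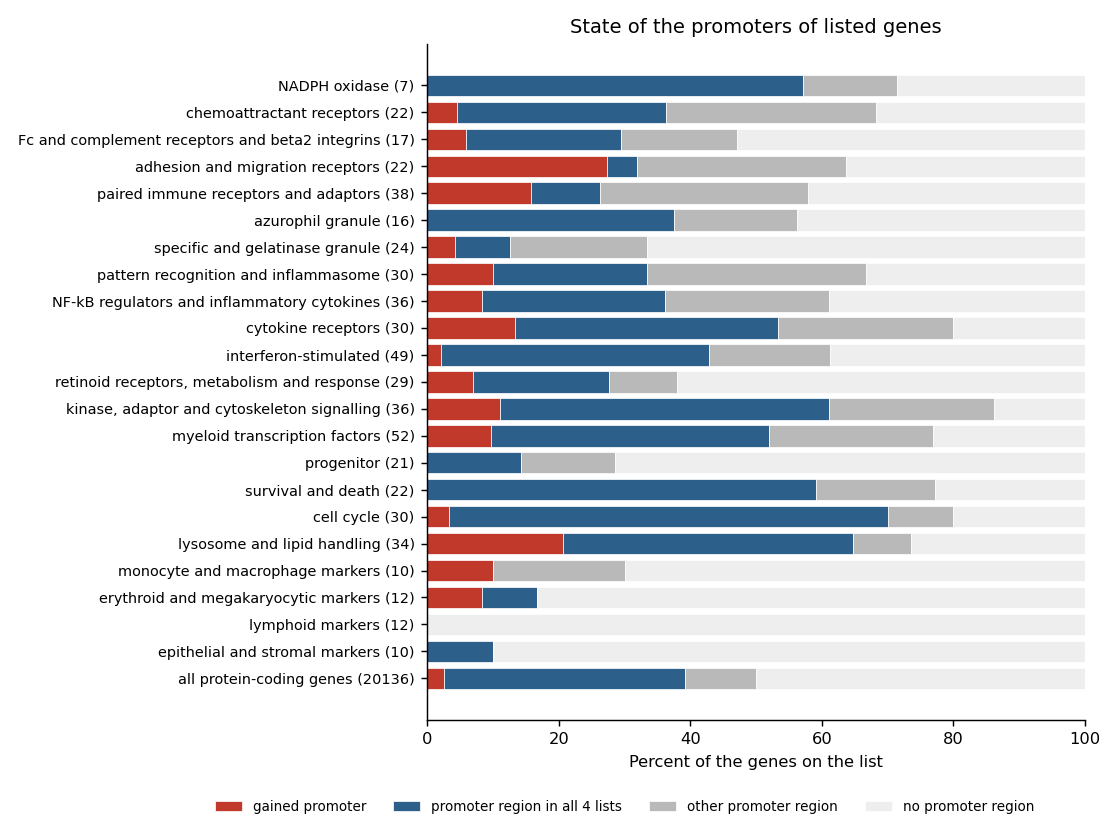
Bars divide the genes of each list (number in the annotation in brackets) by the state of their promoters, in percent: a gained promoter, otherwise a promoter region in all 4 lists, otherwise any other promoter region, otherwise none. Adhesion and migration receptors and lysosome and lipid handling genes have the widest gained segments, and the 2.51% over all protein-coding genes is shown at the bottom.

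Among the adhesion receptors, ICAM1, the endothelial and leukocyte ligand of the beta2 integrins, had 2 gained regions. The upstream region (622 bases before the TSS) had percentiles of 71.5 and 32.5, and the one at the TSS (30 bases before it) had 10.0 and 32.2. CEACAM4, a granulocyte member of the CEA family, had percentiles of 58.6 and 63.7. ADGRE2, ADGRE3 and ADGRE5, adhesion G protein-coupled receptors of myeloid cells, had percentiles of 64.6 and 47.5, 40.8 and 42.2, and 15.2 and 19.6 respectively. ITGB1, the integrin beta1 chain, had percentiles of 21.5 and 17.97, with a control peak 377 bases away. CEACAM4 thus ranked in the upper part of both ATRA lists, and ADGRE5 and ITGB1 near the bottom.

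Of the paired receptors, TREM1, an amplifier of inflammatory responses on neutrophils and monocytes, had percentiles of 63.3 and 6.12. LILRA2, an activating leukocyte immunoglobulin-like receptor, had 3.06 and 63.8, the opposite order. CLEC12A, an inhibitory C-type lectin, had 18.5 and 26.4, and SIGLEC7, an inhibitory sialic acid-binding lectin, had 3.66 and 12.6. The calls at TREM1 and LILRA2 therefore each rested on 1 strong and 1 weak peak, whereas SIGLEC7 was weak in both ATRA lists. CCRL2, a non-signalling receptor for chemerin, was the member among 22 chemoattractant receptor genes, with percentiles of 54.2 and 49.0. CFP was the member among 17 Fc and complement receptor and beta2 integrin genes. These single members were 4.55% and 5.88% of their lists, against 2.51% over all protein-coding genes.

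Cytokine receptors and inflammatory genes came next. IFNGR2, the second chain of the interferon gamma receptor, had percentiles of 67.1 and 61.1, and IL6R, the interleukin 6 receptor, had 59.7 and 44.1. LTBR, the lymphotoxin beta receptor, had 43.9 and 32.6. CCL2, a monocyte chemokine, had 55.8 and 51.2, and RELA, the transactivating subunit of NF-kB, had 31.1 and 51.5. IRAK3, a brake on Toll-like receptor signalling, had 60.8 and 48.5. CARD9, an adaptor downstream of C-type lectins, had 37.7 and 49.0. USP18, which removes ISG15 and dampens interferon signalling, was the member among 49 interferon-stimulated genes, with percentiles of 51.7 and 66.4. This was 2.04% of the list, near the 2.51% over all protein-coding genes, and 20 of its genes had a promoter in all 4 lists.

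Among 29 genes of retinoid receptors, metabolism and response, RARG and RARB had gained promoters. RARG encodes the gamma receptor for retinoic acid, and its region, 440 bases upstream of a TSS in an intron, had percentiles of 78.9 and 62.7. RARB encodes the beta receptor, a known target of retinoic acid. Its region, chr3:24728212-24728581, lay 981 bases upstream of an annotated TSS, near the edge of the rule, and had percentiles of 30.3 and 16.3. Whether this start of RARB is the one that responds to retinoic acid was not examined. Another 6 genes of the list had a promoter in all 4 lists, and 18 had no promoter region.

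Transcription factors with gained promoters were BATF2, CEBPB, MAFF, NFE2 and JUNB. BATF2, a partner of JUN factors that interferon induces, had 2 gained regions at separate starts, with percentiles of 75.7 and 55.2 in one and 36.0 and 49.2 in the other. CEBPB, a factor of late granulocyte and macrophage maturation, had 57.2 and 51.9. MAFF had 47.2 and 36.8, NFE2, known from erythroid and megakaryocytic cells, 51.9 and 24.1, and JUNB, an AP-1 subunit, 39.5 and 30.1. At JUNB the nearest control peaks were 724 and 708 bases away. Of the 52 genes on that list, 22 had a promoter in all 4 lists.

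Signalling genes with a gained promoter were PTPN6, the SHP-1 phosphatase (55.2 and 70.8), RHOG, a small GTPase (49.2 and 10.2), PIK3R5, the regulatory subunit of PI3-kinase gamma (29.8 and 10.6), and FES, a myeloid tyrosine kinase (37.9 and 0.973). In the lysosome and lipid list, OLR1, a receptor for oxidised LDL, had percentiles of 77.4 and 52.8. CTSD, the protease cathepsin D, had 62.0 and 25.9. CTSS, the protease cathepsin S, and ABCG1, a cholesterol exporter, had mean percentiles of 36.5 and 13.7. TCN1, the vitamin B12-binding protein haptocorrin, was the member among 24 specific and gelatinase granule genes, with percentiles of 63.8 and 47.9. CCND1, the cell cycle gene cyclin D1, was the member among 30, with 46.0 and 36.2. TCN1 and CCND1 as single members were 4.17% and 3.33% of their lists, against 2.51% over all protein-coding genes.

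Among markers of other lineages, the monocyte and macrophage list had 1 member in 10 genes (10.0%). The erythroid and megakaryocytic list had 1 in 12 (8.33%), and the lymphoid and the epithelial and stromal lists had none. The share was 2.51% over all protein-coding genes and 8.44% over all listed genes. In lists this short a single member sets the whole share. CD163, the haemoglobin scavenger receptor of macrophages, was gained with percentiles of 54.6 and 4.32. It was 1 of 10 monocyte and macrophage markers, of which CSF1R had a promoter peak in ATRA replicate 2 alone and CX3CR1 in control replicate 2 alone. PPBP, a platelet chemokine, was gained with percentiles of 42.9 and 58.4, and of the 12 erythroid and megakaryocytic markers ITGA2B had a peak in all 4 lists. None of the 12 lymphoid markers had a promoter peak in any list. Of the 10 epithelial and stromal markers, LUM had one in all 4 lists. Of 16 azurophil granule genes, the mark of promyelocytes, between 6 and 8 had a promoter peak in each list. CDKN2A had been listed as a gene lost from the HL-60 genome. It had a promoter peak in all 4 lists and held 3 or 4 peaks in each list within the gene, which goes against that listing.

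The genes with 2 gained regions numbered 8, among them ARHGAP27, BATF2, CACNB3, ICAM1, MICB, SIAH1 and ZNF382. MICB, a stress ligand of the NKG2D receptor, had one region 882 bases upstream of a start and one 57 bases upstream of another. In CACNB3, a calcium channel subunit, the regions lay 112 and 783 bases upstream, so both flanked 1 promoter. The centres of 32 members lay in the promoter window of 2 or more genes.

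The members were short regions at the TSS. Their median width was 453 bases (221 to 2080), against 862 for promoters in all 4 lists, and the region covered the TSS in 365 members (76.2%). The median centre lay 86 bases upstream of the nearest start, and 294 centres (61.4%) lay within 300 bases upstream. Centres fell in an untranslated exon of a protein-coding gene in 132 members, in coding sequence in 8, in an intron in 144 and outside protein-coding genes in 195.

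Of the 505 genes, 75 (14.9%, 12.02 to 18.2) also had another promoter region with peaks in all 4 lists. The other 430 genes had no such region. This share was 4.37% when only the canonical TSS of each gene was used. Another region then counts only if it lies in the same promoter window, so the setting itself lowers the share. Members with such a gene were 52 of the 186 CpG-poor promoters (28.0%, 22.0 to 34.8) and 24 of the 293 CpG-rich ones (8.19%, 5.57 to 11.9), and these intervals do not overlap. DSE, GTDC1, RHOG, ADGRE3 and ITGB1 were of this kind.

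No control peak overlapped a member, by the rule, but some lay near. The nearest peak of either control list was at a median distance of 6433 bases, and under 500 bases for 79 members (16.5%). Leaving these out gave the 400 regions with no control peak within 500 bases. Gained distal regions lay near many of the members, as 186 (38.8%, 34.6 to 43.3) had at least 1 within 50000 bases. Among promoters in all 4 lists the share was 28.8% (27.7 to 29.9), and among those in both ATRA lists and 1 control list 35.9% (33.1 to 38.9). RARG had none, while ICAM1, IFNGR2, LTBR and CTSD each had 3.

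The gained promoters were a mixture of CpG-rich and CpG-poor sequence. A promoter was called CpG-rich when the 200 bases about its centre had at least 50% GC and an observed over expected CpG ratio of at least 0.6, and sequence was not used to choose the members. By this rule 293 of 479 (61.2%, 56.7 to 65.4) were CpG-rich. The share was 82.4% (81.5 to 83.3) in promoters with peaks in all 4 lists, 79.5% (76.9 to 81.8) in those in both ATRA lists and 1 control list, 35.9% (26.8 to 46.1) in lost promoters and 3.74% (3.31 to 4.23) in distal gained regions. The difference from promoters in all 4 lists was -21.2 percentage points (95% Newcombe interval -25.8 to -16.9). It was -5.04 points without control replicate 1 and -31.3 points without ATRA replicate 1, and stayed below 0 with its interval under all 13 alternatives. The median CpG ratio was 0.74 in gained promoters and 0.84 in promoters in all 4 lists, while the median GC content was 65.0% in both. These intervals, and all others here, cover counting error over regions only, and regions of the same libraries are not replicates.

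**Figure D4:**
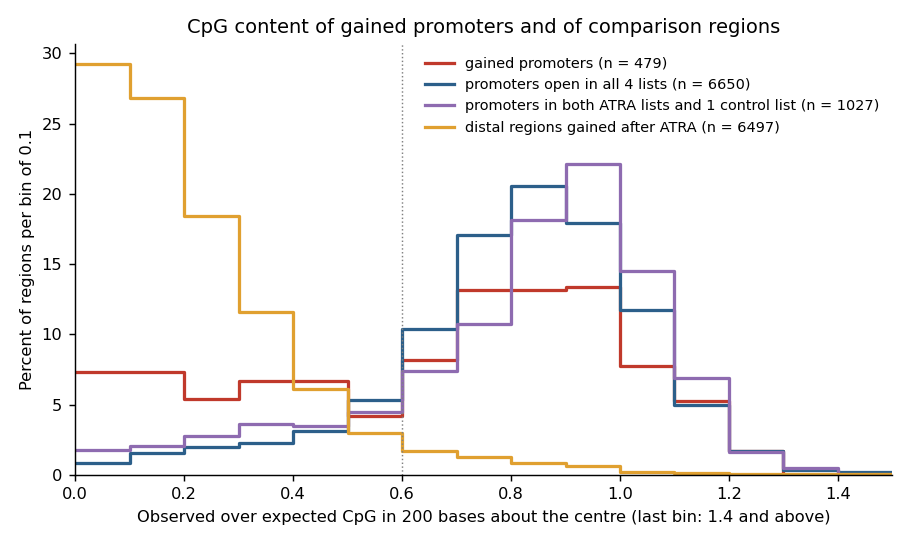
Lines give the percent of regions in each bin of 0.1 of the observed over expected CpG ratio, in 200 bases about the region centre, for gained promoters, both sets of comparison promoters and distal gained regions, with a dotted line at the 0.6 limit. Gained promoters share the broad peak near 0.8 to 1.0 with the other promoters and have a larger share than the promoters in all 4 lists in each bin below 0.5.

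Both classes had similar ranks in ATRA replicate 1, with medians of 37.9 (CpG-rich) and 37.7 (CpG-poor). In ATRA replicate 2 the medians were 32.4 and 42.4. Of the 20 highest-ranking members, 9 were CpG-rich and 11 CpG-poor. The centres of CpG-poor members lay farther upstream, at a median of 170 bases against 65 bases.

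Consensus motifs of factors active in myeloid cells or at promoters were searched on both strands in the 200 bases about each centre, as a description of the letters present. Examples from list genes are printed for PU.1, CEBP and RUNX, together with the site in BATF2 that matched the DR5 element, a direct repeat of half-sites with 5 bases between them that RARs bind. These examples were chosen after the values were seen, and capitals again mark matches.
PPBP (chr4:74853908-74854017, minus strand): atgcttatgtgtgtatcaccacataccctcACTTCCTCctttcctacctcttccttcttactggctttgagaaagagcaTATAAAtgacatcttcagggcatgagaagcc
TCN1 (chr11:59633990-59634189, minus strand): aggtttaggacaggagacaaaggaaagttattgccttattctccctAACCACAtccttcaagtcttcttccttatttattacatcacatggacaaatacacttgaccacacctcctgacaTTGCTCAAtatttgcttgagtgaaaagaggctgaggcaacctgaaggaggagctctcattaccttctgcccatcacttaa
BATF2, 30 bases about its DR5 match (chr11:64757755-64757784, minus strand): aagcagAGTTCATGTGAGGGTCAggaaggg
PPBP holds a PU.1 and a TATA match, and TCN1 a CEBP and a RUNX match. Both are CpG-poor.

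The AP-1 motif (TGANTCA), bound by JUN and FOS family dimers, was present in 32 members (6.68%, 4.77 to 9.28), against 2.14% of promoters in all 4 lists and 3.06% of all promoter regions. The difference from promoters in all 4 lists was 4.55 percentage points (2.60 to 7.16). The RUNX motif (AACCACA) was present in 25 members (5.22%, 3.56 to 7.59), against 2.17% in all 4 lists and 2.68% of all promoter regions, a difference of 3.05 points (1.35 to 5.45). The PU.1 motif (GAGGAAGT), bound by the myeloid master regulator, was present in 18 members (3.76%, 2.39 to 5.86), against 1.97% and 2.55%, a difference of 1.79 points (0.373 to 3.91). Distal gained regions held these motifs more often, at 11.2% for AP-1, 12.5% for RUNX and 13.99% for PU.1. When only peaks above the median score of each list were used, the difference was -0.013 points for AP-1 and -0.45 points for RUNX. Without control replicate 1 it was 1.81 points for AP-1, 1.07 points for RUNX and 0.35 points (-0.421 to 1.36) for PU.1, and without control replicate 2 it was 1.99 points for RUNX. Over the whole merged regions it was -0.42 points for AP-1, -1.01 points for RUNX and -0.093 points for PU.1. Lost promoters (92 regions) also held these motifs, at 9.78% for AP-1, 6.52% for RUNX and 8.70% for PU.1. Gained minus lost promoters was -3.10 points (-11.1 to 2.14) for AP-1 and -1.30 points (-8.48 to 2.92) for RUNX. For PU.1 it was -4.94 points (-12.6 to -0.219).

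The other motifs of myeloid factors differed less from promoters in all 4 lists. The CEBP motif (TTGCNNAA) was present in 28 members (5.85%), against 4.53% and 5.21% of all promoter regions, a difference of 1.32 points (-0.528 to 3.84). The IRF motif (GAAANNGAA) was present in 21 members (4.38%), against 4.63% and 4.65%, a difference of -0.25 points (-1.84 to 2.03). Both intervals include 0, though the CEBP difference was 3.59 points (1.96 to 5.52) without ATRA replicate 1 and 2.07 points (0.485 to 4.03) without ATRA replicate 2. The GATA motif (AGATAA) was present in 19 members (3.97%), against 2.56% and 3.32%, a difference of 1.41 points (-0.0602 to 3.58). Lost promoters held it at 10.9%. The CTCF motif differed by 1.26 points (0.279 to 2.98), the E-box (CACGTG) by -0.554 points (-2.60 to 2.14) and NRF1 (CGCATGCG) by -0.397 points (-1.55 to 1.46). The GATA, CTCF, E-box and NRF1 differences were not recomputed under the alternatives.

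The RAR half-site (AGGTCA), the unit shared by many nuclear receptor elements, was present in 51 members (10.6%, 8.19 to 13.7), against 6.08% of promoters in all 4 lists and 6.69% of all promoter regions. The difference was 4.57 points (2.04 to 7.70), and 1.10 points (-0.316 to 2.72) without control replicate 1. It was 2.00 points (-0.141 to 4.72) with only the peaks above the median score, and turned to -7.96 points (-11.7 to -3.80) when whole merged regions, which are of unequal width, were searched. The full DR5 element was present in 1 member, at BATF2, and in 3 of 9910 promoter regions. The DR2 element was found in none of the 479 members and in 5 promoter regions. DR1 was present in 3 members, at SRCAP, KCNIP3 and TSPAN7, and in 14 promoter regions. The window of RARB used here held none of DR1, DR2 and DR5.

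The CCAAT, ETS and GC box motifs, common in CpG-island promoters, were less frequent over all members than in promoters in all 4 lists. The CCAAT motif, bound by NF-Y, was present in 88 members (18.4%), against 30.9% of promoters in all 4 lists and 27.2% of all promoter regions. The difference from promoters in all 4 lists was -12.6 points (-16.0 to -8.69). Promoters in both ATRA lists and 1 control list, which had weaker peaks, held it at 20.8%. The difference from these was -2.47 points (-6.59 to 1.94), which includes 0. The ETS motif (CCGGAAGT) was present in 18 members (3.76%), against 6.87% and 5.96%, a difference of -3.11 points (-4.62 to -0.931). It was -0.47 points (-1.82 to 1.10) without control replicate 1 and 0.603 points (-1.50 to 3.28) above the median score. Against promoters in both ATRA lists and 1 control list the ETS difference was -3.45 points (-5.67 to -0.906). The GC box (GGGCGG), bound by SP family factors, was present in 234 members (48.9%), against 57.1% and 54.7%, a difference of -8.23 points (-12.8 to -3.61). That difference became 3.23 points without control replicate 1, -3.92 points without ATRA replicate 2 and -16.7 points without ATRA replicate 1. Against promoters in both ATRA lists and 1 control list the GC box difference was -14.4 points (-19.7 to -9.06). The motif TATAAA, the core of the TATA box, was present in 24 members (5.01%), against 2.86% and 3.14%, a difference of 2.15 points (0.477 to 4.52). It was 0.327 points (-0.967 to 2.81) among CpG-rich and 2.56 points (-1.14 to 7.73) among CpG-poor promoters. Both of these intervals include 0, and the TATAAA difference was not recomputed under the alternatives.

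Since the sets differed in their CpG classes, the shares were also compared within a class. Among CpG-poor promoters, the AP-1 motif was present in 11.8% of 186 gained promoters and 5.47% of 1170 in all 4 lists, a difference of 6.36 points (2.21 to 11.9). RUNX was present in 10.8% and 5.81%, a difference of 4.94 points (0.967 to 10.3), and the RAR half-site in 15.6% and 9.83%, a difference of 5.76 points (0.891 to 11.9). Without ATRA replicate 1 the difference was 2.20 points (-0.320 to 5.15) for AP-1 and 2.00 points (-0.562 to 4.99) for RUNX. AP-1 was at 2.67 points without control replicate 1 and -0.265 points above the median score. RUNX was at 2.49 points without control replicate 2 and 0.648 points above the median score. The RAR half-site was at 3.47 points (-0.414 to 8.18) without control replicate 2 and -6.88 points over whole merged regions. The difference for PU.1 in this class was 2.46 points (-0.702 to 7.18) and that for CEBP 3.62 points (-0.624 to 9.24), and both intervals include 0. The 59 CpG-poor lost promoters held AP-1 at 11.9% and RUNX at 10.2%, close to the gained ones, and the RAR half-site at 5.08%. CpG-poor distal gained regions held AP-1 at 11.4%, RUNX at 12.9% and the RAR half-site at 16.4%. Among CpG-rich promoters, the CCAAT motif was the one that differed most from promoters in all 4 lists, by -16.5 points (-20.3 to -11.8). Against CpG-rich promoters in both ATRA lists and 1 control list, which had weaker peaks, that difference was -6.40 points (-11.0 to -1.17). Against promoters in all 4 lists, the GC box went the other way in CpG-rich promoters. It was present in 69.3% of gained promoters and 63.3% of those in all 4 lists, a difference of 5.94 points (0.297 to 11.1). CpG-rich promoters in both ATRA lists and 1 control list held it at 74.1%. The difference from these was -4.86 points (-11.1 to 1.03), which includes 0. Against promoters in all 4 lists, the ETS difference in this class was -2.29 points (-4.49 to 1.00), which includes 0.

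**Figure D5:**
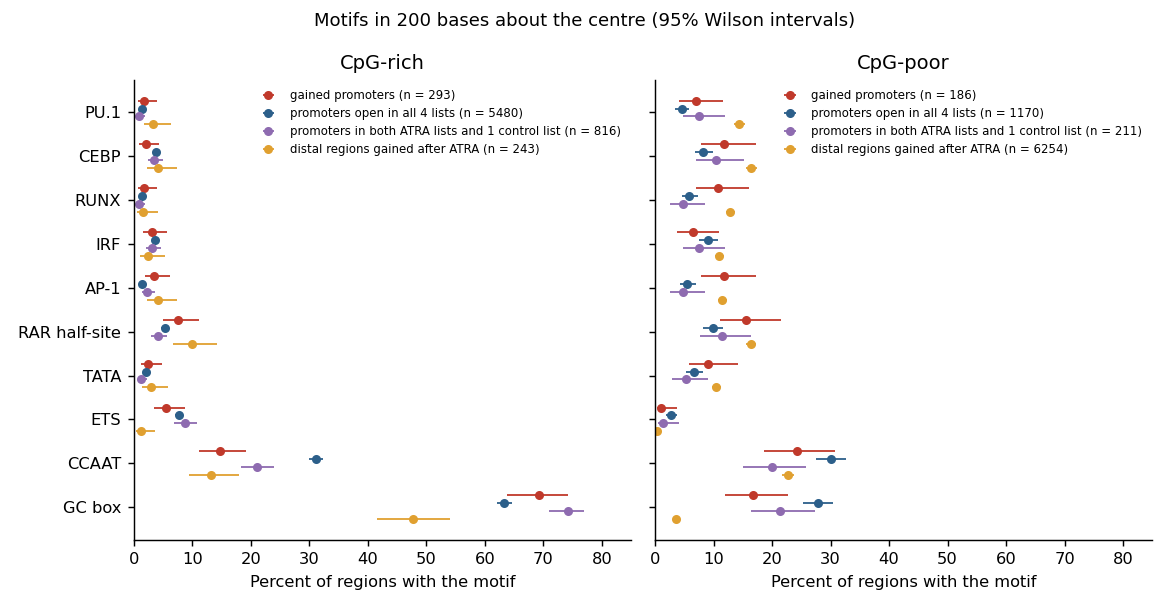
Points give the percent of regions whose 200 bases about the centre hold each motif, with 95% Wilson intervals, for CpG-rich regions (left) and CpG-poor regions (right) of the 4 sets. In the CpG-poor panel gained promoters lie at 11.8% for AP-1 and 10.8% for RUNX, above promoters in all 4 lists, and in the CpG-rich panel they lie below them for CCAAT.

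Promoters were a small part of what was gained. They made up 479 of 6976 gained regions (6.87%, 6.30 to 7.48), against 28.1% (27.5 to 28.7) of regions with peaks in all 4 lists, 14.7% (13.9 to 15.6) of regions in both ATRA lists and 1 control list, and 3.49% (2.86 to 4.27) of lost regions. The share in gained regions was 12.8% without control replicate 1 and 4.57% without ATRA replicate 1.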

How the data were processed

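ATAC-seq was performed on 2 ATRA-treated and 2 control HL-60 cultures, grouped by sample title. The authors trimmed adapters, aligned the reads and called peaks library by library. Their methods name Bowtie for alignment (hg19) and MACS2 with its defaults for peak calling. The sample labels name Bowtie2, and MACS beside MACS2, and versions are not given. Neither an adjustment for the Tn5 offset nor a removal of PCR duplicates is given in the sources used here, so peak edges are approximate. The deposited lists give each peak's position and score. The score is the peak caller's value, of unstated scale, and was used only for ranks. Read depth was unknown.

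Peaks were merged with bedtools 2.31.1 and annotated with GENCODE release 44 lifted to GRCh37 (basic transcripts of protein-coding genes, 56143 TSS positions). All 24 chromosomes of the lists were in the reference. Coordinates are 1-based. GC, CpG and 17 motifs were read from the reference with pysam 0.24.0 in 200 bases about each centre. Printed sequences are the part of these bases outside exons of protein-coding genes, or, where under 60 bases remained, up to 200 bases of the region outside exons. Tables were handled with pandas 2.3.3 and numpy 2.4.6 under Python 3.11.15, intervals came from scipy 1.17.1, and matplotlib 3.10.9 drew the figures. The scripts were tested on simulated lists.

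No p-value was computed, because the members were chosen by the contrast and regions are not replicates. Shares have 95% Wilson intervals and differences 95% Newcombe intervals. Genes were named by rank (the 20 with the highest mean percentile), by membership of the lists, at the edges of the rule, or for 2 gained regions. Some of these genes and sequences are not reported here. The members and lists were chosen with earlier results of these data known. Alternatives changed the merging, the absence call, the score range, the number of peaks per list, the promoter window, the TSS set, the peak width, the searched sequence and the libraries.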

Additional observations from a re-analysis of the deposited data

How the results depend on the processing

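No paired analysis was possible because the results come from no test. The 12 main results had 150 recomputed values. Of these, 96 stayed within 1.5 times the count or within the interval given, and 54 did not. The cause was not tested. Values without 1 library come from a looser rule, as 1 list then decided presence or absence in its group. Leaving out each library in turn gave 704 to 1303 gained promoters, a promoter share of 4.57% to 12.8%, a median percentile of 26.8 to 46.6, a median GC content of 61.5% to 69.0%, a CpG-rich share of 50.3% to 76.3%, another open promoter in 14.3% to 20.7% of genes, a median distance to a control peak of 3691 to 10094.5 bases, 63 to 82 list genes, and motif shares of 2.30% to 4.77% for PU.1, 4.07% to 5.77% for IRF, 5.07% to 8.25% for CEBP and 3.22% to 4.67% for RUNX. With no control peak within 500 bases, the promoter share was 6.06%, another open promoter was found for 10.6% of genes and the median distance was 9730.5 bases. With only the peaks above each list's median score, the promoter share was 13.9%, the median percentile 68.6, the CpG-rich share 73.6%, the share with another open promoter 4.60%, the distance 21547 bases and the RUNX share 1.73%. With an equal number of peaks per list, 270 promoters were gained, with a promoter share of 5.79%, a median percentile of 51.4, a GC content of 62.5%, a CpG-rich share of 54.8%, a distance of 9815.5 bases and 31 list genes. A window of 500 bases on both sides gave a CpG-rich share of 65.5%. With 1 TSS per gene, the promoter share was 5.25%, the GC content 67.75%, the CpG-rich share 70.2% and the share with another open promoter 4.37%. That last share is lowered by the setting itself. Peaks set to 200 bases gave a promoter share of 7.86% and a distance of 4171 bases. The set of all protein-coding transcripts, chosen after seeing the data, gave 7.76% and another open promoter in 19.2% of genes. Searching the whole merged region gave 7.52% for PU.1, 12.1% for IRF, 13.99% for CEBP and 8.77% for RUNX; regions in all 4 lists are wider and hold more letters.

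Differences in motif share between gained promoters and those in all lists changed sign as follows, in percentage points. Above the median score, they were 0.603 for ETS, -0.453 for RUNX, -0.013 for AP-1 and -0.265 for AP-1 in CpG-poor promoters. Over whole regions they were -0.093 for PU.1, -9.44 for CEBP, -1.01 for RUNX, -0.42 for AP-1 and -7.96 for the RAR half-site, and in CpG-poor promoters -2.11 for PU.1, -5.28 for CEBP and -6.88 for the RAR half-site. IRF was -8.67 over whole regions, 0.494 with equal numbers of peaks, 0.265 with 1 TSS per gene, 0.048 with 200-base peaks, 0.484 with all transcripts, and between -0.648 and 1.14 when 1 library was left out, above 0 without either ATRA library. PU.1 in CpG-poor promoters was -0.093 with 200-base peaks. The GC box lay between -16.7 and 3.23 when 1 library was left out, above 0 without control replicate 1.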
